A study of Mus musculus with 8 samples.

Results

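The mouse linker histone gene H1f0 and 7 genes for histone variants made outside the replication-dependent gene clusters were described across DC2.4 cells, a mouse dendritic cell line of C57BL/6 strain, after allergen extracts. The 8 genes were taken by symbol: the linker histones H1f0 and H1fx, the H2A variants H2afx, H2afy, H2afz and H2afv, and the H3.3 genes H3f3a and H3f3b. All 8 had a row among the 24054 rows of the deposited table, and 7 of them passed the filter on low values that 11455 rows passed. They were chosen with results of these libraries in view, so their differences between groups are given as descriptions and carry no p-value.

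The 3 treatments were set against untreated cells: HDM, an extract of house dust mite, Grass, one of Timothy grass, and Cat, one of cat hair. Cells received 250 PNU/ml of an extract during 4 h, and every group has 2 libraries. The protocol text, which is the same for all 8 libraries, places 4 h in medium with 0.1% serum before the extract, after growth in 10% serum, and the labels name no vehicle for the Untreated libraries. DC2.4 is 1 cell line, so the labels' 2 independent samples per condition are samples of that line. An SD here is the spread of 2 such samples. Standard errors and p-values come from a fit that pools spread within the 4 groups and adjusts it by the spread of other rows. None of them measures spread between cell lines or animals. Libraries were stranded and made from enriched mRNA, per the labels' protocols, which do not say how the mRNA was enriched.

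A nucleosome wraps DNA around core histones, and a linker histone binds where the DNA enters and leaves it. Most histone genes sit in clusters, are transcribed during DNA replication and end their mRNAs in a stem-loop in place of a poly(A) tail, while the variant genes are expressed outside replication and mostly give polyadenylated mRNAs. H1f0 encodes H1.0, a linker histone known for accumulating in differentiated and non-dividing cells. H3.3 replaces H3 at active genes and other sites, H2A.Z marks nucleosomes flanking transcription start sites, H2A.X is phosphorylated around DNA breaks, and macroH2A carries a large extra domain and is enriched on silent chromatin.

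The libraries held 41.8 and 31.94 M reads with HDM, 43.32 and 37.02 M with Grass, 35.28 and 36.22 M with Cat, and 35.81 and 35.9 M in Untreated cells. Values below are the authors' depth-scaled read values, in which every library had 1 fixed value per read. They cannot be compared between genes of different length, and comparing them between libraries rests on the authors' scaling, whose derivation is not given. The values of all rows summed to 975215 to 1001836 in the libraries with an extract, against 1032128 and 1047501 in the Untreated ones. Of 14 dendritic and myeloid marker genes, 12 passed the filter. The summed value of the 14 was 2300 to 2380 in the 6 libraries with an extract, against 2460 to 2480 in the Untreated libraries. Laptm5 (549 to 598) and Csf1r (491 to 523) gave the largest parts of that sum. Itgax and Zbtb46 were low but passed the filter, at 2.57 to 3.29 (89 to 125 reads) and 0.992 to 1.96 (34 to 71 reads). Flt3 reached at most 0.0944 and did not pass, and the class II gene H2-Ab1 was listed at 0 in all 8. Markers of B cells, epithelial cells and fibroblasts gave no row past the filter in 4, 4 and 4 genes. Their summed values were at most 0.138. Of 5 T cell markers 1 passed, Cd8a (0.461 to 0.98), while Cd3e and Cd3g were at 0 in all 8 libraries. The 5 summed to 0.461 to 0.723 with an extract and to 0.584 to 1.04 in Untreated cells.

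The sequences shown here are the features in which the variant genes differ from cluster histone genes and from each other. H2afx, alone among the 8 genes in the GENCODE M21 transcripts, held a match to the histone stem-loop, a 16-base motif searched on the transcript strand. The match, in capitals within its flanking bases, lies at bases 547 to 562 of the 1384 bases of transcript H2afx-201 from chromosome 9, 49 bases after the last coding base and with 822 bases beyond it.

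H2afx stem-loop: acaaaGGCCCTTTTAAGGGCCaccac

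That motif was found in transcripts of 89 of 55341 genes (0.161%) and of 44 of 70 cluster histone genes (62.9%). The promoters of H1f0 and of the H3.3 genes are shown because H1f0 had the widest difference between groups and the H3.3 genes encode the same protein yet differed in theirs. Each runs from 250 bases before to 50 bases after the RefSeq transcription start on GRCm38.p6, written in the gene's own direction, with capitals where either strand matches the CCAAT box (letters CCAAT), the TATA box (searched as TATAAA) or the H1 box of linker histone promoters (searched as AAACACA). The H1f0 promoter is chr15:79027962-79028261 on the plus strand, the H3f3b promoter is chr11:116024455-116024754 on the minus strand, and the H3f3a promoter is chr1:180813556-180813855 on the minus strand.

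H1f0 promoter: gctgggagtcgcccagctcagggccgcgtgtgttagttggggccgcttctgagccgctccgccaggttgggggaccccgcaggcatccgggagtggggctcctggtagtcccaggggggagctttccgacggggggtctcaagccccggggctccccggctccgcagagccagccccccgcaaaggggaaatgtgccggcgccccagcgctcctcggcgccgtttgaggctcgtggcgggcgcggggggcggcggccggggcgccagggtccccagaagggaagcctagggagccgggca

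H3f3b promoter: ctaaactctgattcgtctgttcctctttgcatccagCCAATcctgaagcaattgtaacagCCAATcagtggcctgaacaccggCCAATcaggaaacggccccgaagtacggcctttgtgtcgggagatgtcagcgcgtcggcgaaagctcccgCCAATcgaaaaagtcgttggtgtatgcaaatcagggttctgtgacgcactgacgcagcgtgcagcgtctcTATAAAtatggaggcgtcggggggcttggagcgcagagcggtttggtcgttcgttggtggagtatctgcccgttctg

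H3f3a promoter: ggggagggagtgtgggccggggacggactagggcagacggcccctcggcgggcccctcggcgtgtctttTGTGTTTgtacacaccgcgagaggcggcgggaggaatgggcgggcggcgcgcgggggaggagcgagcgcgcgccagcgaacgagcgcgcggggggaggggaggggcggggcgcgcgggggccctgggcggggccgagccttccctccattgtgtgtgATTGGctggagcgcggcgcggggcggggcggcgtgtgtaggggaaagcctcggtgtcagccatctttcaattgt

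H1f0 has 1 exon in the annotation, and its promoter window was 75.0% G or C, against a median of 52.7% over 32851 RefSeq promoters, with none of the searched letters in it. The H3f3b window was 55.0% G or C and held 4 CCAAT matches on the sense strand, first bases at -214, -190, -167 and -97 from the start, and TATAAA at -27. The H3f3a window, for the same protein, was 74.0% G or C and held 1 CCAAT match at -24 and AAACACA at -181, both on the antisense strand. Of all promoters, 37.4% held CCAAT, 13.6% TATAAA and 7.18% AAACACA, and TTTGGCGC (0.514%) and TGACGTCA (1.79%) were found in none of the 7 promoters that matched a RefSeq entry. H2afv held 4 CCAAT matches, H2afz held 3, and H1fx and H2afy held none of these letters.

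H1f0 was lower in cells given any of the 3 extracts. Its value was 128.8 and 135.4 with HDM, 123.2 and 120.6 with Grass and 154.5 and 151.3 with Cat, against 286.4 and 279.0 in Untreated cells. In H1f0, as in 25.2% of all rows tested, all 6 libraries with an extract lay below both Untreated ones. For H1f0 each library rests on 4400 to 9937 reads, a counting error of 1.0 to 1.51%. Of its 50-base stretches 5.68% also occur, on either strand, in transcripts of 1 other gene. Such shares count both strands for every gene here, so in stranded libraries they can overstate the ambiguity. The means were 132 ± 4.7 with HDM, 122 ± 1.9 with Grass and 153 ± 2.3 with Cat, against 283 ± 5.3 in Untreated cells (SD, n = 2 each), or 46.7%, 43.1% and 54.1% of the Untreated mean. The log2 fold changes, on log2(value + 0.1), of H1f0 were −1.10 for HDM, −1.21 for Grass and −0.89 for Cat, each with a standard error of 0.03. Over the 20 other settings they ranged over −1.13 to −1.02, −1.23 to −1.12 and −0.91 to −0.83.

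Among the 2470 rows with a mean value of at least 100, H1f0 had the lowest fold change with Cat and the 3rd lowest with HDM and with Grass, ranks that describe a gene picked for its change. Among all 11455 rows its rank from the lowest was 27 for HDM, 21 for Grass and 15 for Cat. The authors' deposited table of changed genes gives H1f0 signed linear fold changes of −2.08 with HDM, −2.25 with Grass and −1.81 with Cat. H1f0 was the only one of the 8 genes in any of the 3 authors' deposited tables, whose smallest fold in either direction is 1.501.

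**Figure D1:**
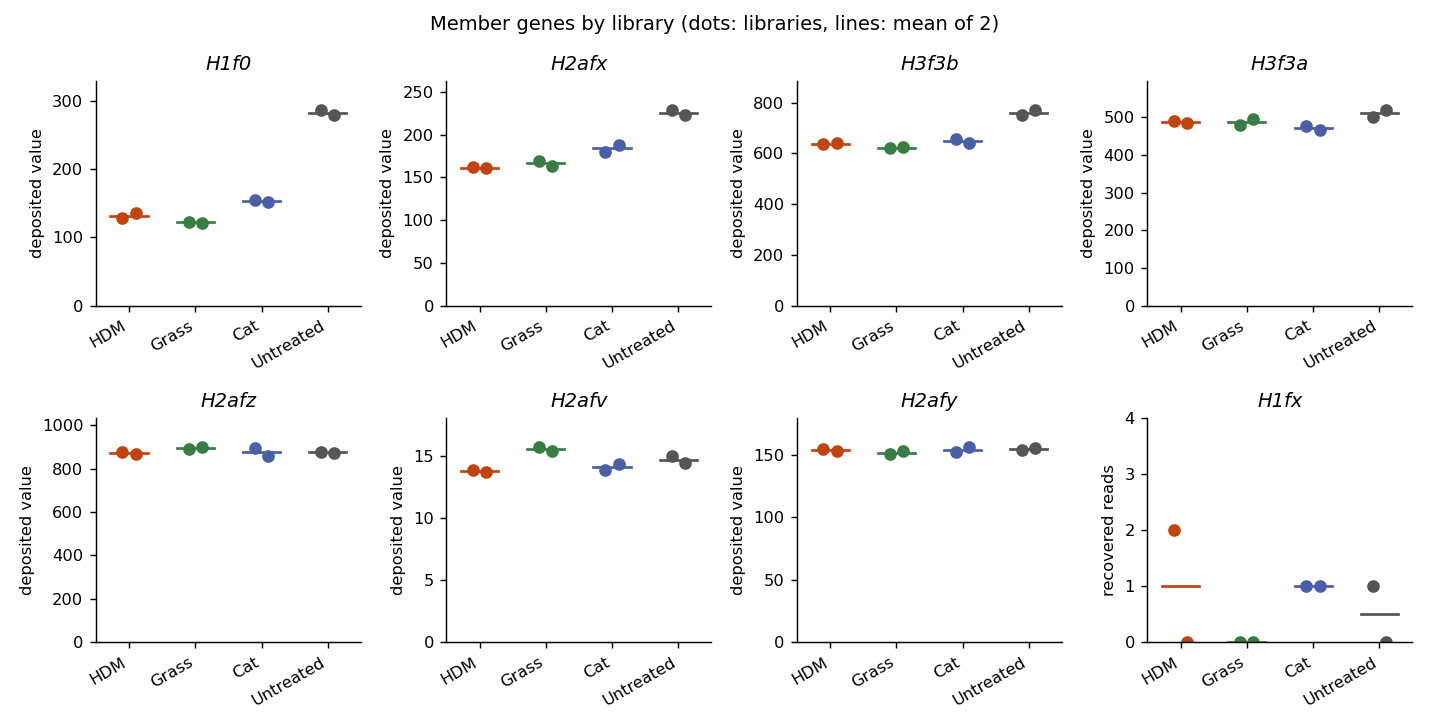
Value of each of the 8 genes in every library (authors' depth-scaled reads, with whole reads for H1fx; axes start at 0), with the groups HDM, Grass, Cat and Untreated from left to right; dots are the 2 libraries and lines their mean. H1f0 sits at 120.6 to 154.5 in the 6 libraries with an extract, against 279.0 and 286.4 in Untreated cells, while H2afy and H2afz run level across the groups.

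H1f0 was lower with HDM and with Grass than with Cat. From the lowest mean the order was Grass, HDM, Cat and Untreated. The difference between HDM and Cat was −0.21 and that between Grass and Cat −0.33 on the log2 scale, with a standard error of 0.03 for both. Over 20 other settings (scaling, pseudocount, filter, tool or a library left out) they ranged over −0.25 to −0.18 and −0.34 to −0.29. HDM and Grass differed by 0.12, the smallest of the 3 differences between extracts, and this difference was not called in the limma fit.

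H2afx was lower with every extract, by less than H1f0. Its value was 162.5 and 160.5 with HDM, 169.5 and 163.3 with Grass and 180.1 and 187.9 with Cat, against 228.5 and 222.9 in Untreated cells. In H2afx, as in 25.2% of all rows tested, all 6 libraries with an extract lay below both Untreated ones. From the lowest mean the order was HDM, Grass, Cat and Untreated. HDM and Grass lie close together, a difference not called in the limma fit. The log2 fold changes were −0.48, −0.44 and −0.29 with HDM, Grass and Cat (standard error 0.03), or 71.5%, 73.7% and 81.5% of the Untreated mean. The log2 difference from Cat was −0.19 for HDM and −0.15 for Grass. Of the 50-base stretches in its transcripts, 9.66% also occur in transcripts of 43 other genes, so a small part of its reads could have been assigned elsewhere.

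The H3.3 genes differed in how far they moved. H3f3b was 636.8 and 640.1 with HDM, 622.7 and 623.5 with Grass and 657.7 and 640.3 with Cat, against 750.7 and 769.8 in Untreated cells. For H3f3b, as for 25.2% of all rows tested, all 6 libraries with an extract lie below both Untreated ones. Its log2 fold changes were −0.25, −0.29 and −0.23 (standard error 0.03), with ranges of −0.27 to −0.17, −0.31 to −0.20 and −0.25 to −0.17 over the other settings. H3f3a was 490.8 and 484.3 with HDM, 479.5 and 494.0 with Grass and 476.5 and 465.5 with Cat, against 501.3 and 518.1 in Untreated cells. These groups too did not overlap the Untreated libraries, but the log2 changes were −0.06, −0.07 and −0.11. With upper-quartile factors the changes with HDM and Grass were 0.01 and 0.01, and with plain library size 0.01 and 0.02, so their direction depends on the scaling, while the change with Cat was −0.07 and −0.06. Of H3f3a's 50-base stretches, 29.2% also occur in transcripts of 42 other genes, so its read assignment is uncertain. For H3f3b the share was 8.4%, with 3 other genes.

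The ratio of the 2 H3.3 genes within a library does not depend on the scaling between libraries. H3f3b over H3f3a reads was 1.3 and 1.32 with HDM, 1.3 and 1.26 with Grass and 1.38 and 1.38 with Cat, against 1.5 and 1.49 in Untreated cells. The ratio was lower in all 6 libraries with an extract than in either Untreated one, which shows unequal change and not that one gene was unchanged. H1f0 over H2afz was 0.147 and 0.156 with HDM, 0.139 and 0.134 with Grass and 0.173 and 0.176 with Cat, against 0.326 and 0.319 in Untreated cells. H2afx over H2afz was 0.186 and 0.185 with HDM, 0.191 and 0.181 with Grass and 0.201 and 0.219 with Cat, against 0.26 and 0.255 in Untreated cells. Both ratios separate the Untreated libraries from all the others.

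**Figure D2:**
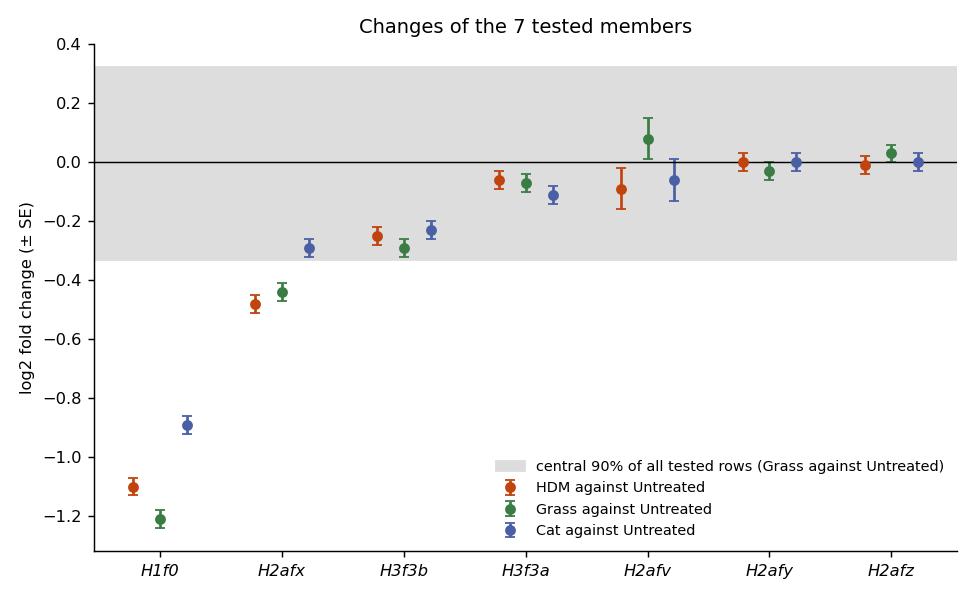
Log2 fold change of the 7 tested genes with HDM, Grass and Cat against Untreated cells (n = 2 libraries a group). Bars are standard errors of the fit over all 8 libraries. The grey band holds the middle 90% of all tested rows with Grass, −0.33 to 0.32. H1f0 lies between −1.21 and −0.89, H2afx and H3f3b below 0 with every extract, and H2afy, H2afz and H2afv within 0.10 of 0.

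The other H2A variants moved little. H2afz, one of the H2A.Z genes, was 874.8 and 869.3 with HDM, 888.8 and 899.8 with Grass and 894.8 and 857.6 with Cat, against 877.6 and 873.5 in Untreated cells. Of the HDM libraries 1 lies between the Untreated ones and 1 below both, the Grass libraries above them and the Cat libraries on either side, and the log2 changes were −0.01, 0.03 and 0.00. With Grass the change was 0.07 with TMM factors and 0.12 with plain library size, and with HDM it was 0.07 with upper-quartile factors and with plain library size, so the direction with HDM depends on the scaling. Of its 50-base stretches 63.8% also occur in transcripts of other genes, most of them in Tmcc1 (55.7%), so its level is uncertain.

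H2afv, the other H2A.Z gene, had 445 to 695 reads and was 13.87 and 13.69 with HDM, 15.69 and 15.41 with Grass and 13.86 and 14.32 with Cat, against 14.93 and 14.44 in Untreated cells. The HDM and Cat libraries lie below both Untreated ones and the Grass libraries above both, with log2 changes of −0.09, 0.08 and −0.06 (standard error 0.07). H2afy, for macroH2A1, was 154.8 and 153.5 with HDM, 150.9 and 152.9 with Grass and 152.3 and 156.3 with Cat, against 154.1 and 155.2 in Untreated cells. The HDM and Cat libraries overlap the Untreated ones, the Grass libraries lie just below them, and the log2 changes were 0.00, −0.03 and 0.00. H1fx, the linker histone H1x, had 2 and 0 reads with HDM, 0 and 0 with Grass and 1 and 1 with Cat, against 1 and 0 in Untreated cells. It was not detectable at this depth, where 3 reads correspond to a value of 0.0677 to 0.0923 per library. Of the 50-base stretches of H1fx 14.0%, and of those of H2afy 8.2%, also occur in transcripts of 1 other gene, so some reads could have been assigned elsewhere.

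A change was called where the limma fit over all rows gave a Benjamini-Hochberg adjusted p under 0.05. Counted over the 7 tested genes, 3 were called lower with HDM and 3 with Grass (H1f0, H2afx and H3f3b) and 4 with Cat (H3f3a as well), where lower calls took 21.9%, 25.4% and 13.6% of all rows tested. The call of H3f3a was lost with upper-quartile factors, with plain library size and without Cat library 2, and H3f3a was also called lower with HDM and with Grass without Untreated library 1. None was higher in any of the 3 comparisons, against 9.22%, 10.4% and 4.34% of all rows, and both edgeR and DESeq2 called H2afz higher with Grass. All 6 libraries with an extract lay below both Untreated ones for 4 genes (H1f0, H2afx, H3f3a and H3f3b), and 25.2% of all rows did so, while none lay above, where 10.8% of rows did. The median log2 change of the 7 genes was −0.09 for HDM, −0.07 for Grass and −0.11 for Cat, against −0.04, −0.04 and −0.03 over all rows. Between extracts 2 genes (H1f0 and H2afx) were lower with HDM than with Cat and the same 2 with Grass than with Cat, where 4.82% and 8.23% of all rows were; without Grass library 2 or without Cat library 2 the count for Grass and Cat was 1 (H1f0). None of the 7 was called between HDM and Grass, where 2.31% of rows were, and H1f0 was called higher with HDM there in 4 of the other settings. These genes were chosen from the same comparisons, so nothing is read from these shares. The 3 comparisons share the 2 Untreated libraries.

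**Figure D3:**
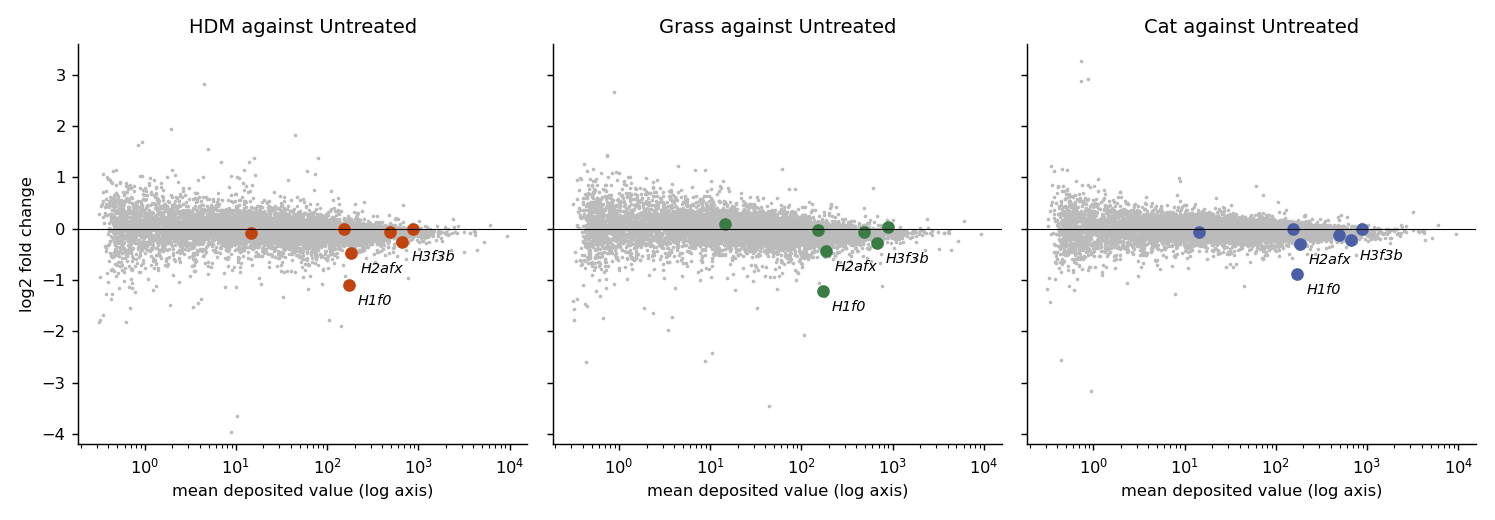
Log2 fold change (vertical) over the mean value (horizontal, log axis) of all 11455 tested rows in grey and the 7 genes in colour, with HDM, Grass and Cat against Untreated cells in a panel each. H1f0 lies at −1.10, −1.21 and −0.89, at the lower edge of rows of like value.

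The rows whose values follow those of H1f0 most closely were found over the 8 libraries among the 8821 rows with a mean of at least 10. The highest Pearson correlations, given with no p since all points share the 8 libraries and the 2 Untreated ones stand apart, were with Kif20a (0.998), a kinesin of cytokinesis, Cdc20 (0.996), an activator of the anaphase-promoting complex, Arhgap19 (0.995), Ube2c (0.994), a ubiquitin-conjugating enzyme of that complex, and Arl6ip1 (0.994), a membrane protein of the endoplasmic reticulum. Cdc20 was 106 and 110 with HDM, 104 and 107 with Grass and 118 and 117 with Cat, against 155 and 149 in Untreated cells, with log2 changes of −0.49, −0.53 and −0.37. Kif20a changed by −0.34, −0.37 and −0.26, a smaller step than H1f0 in the same order of groups.

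The rows that ran most opposite were Trim65 (−0.992), an E3 ubiquitin ligase, Slc7a11 (−0.992), a subunit of the cystine and glutamate exchanger, Abcc5 (−0.989), an ABC transporter, Zfp687 (−0.988) and Pgm2l1 (−0.986). Slc7a11 was 84.9 and 80.2 with HDM, 82.3 and 83.4 with Grass and 77.6 and 75.1 with Cat, against 48.5 and 48.7 in Untreated cells. Among the 7 tested members, H3f3b (0.99) and H2afx (0.97) had the highest correlation with H1f0, with 23 and 144 rows closer to it, while H2afz (−0.26) and H2afv (−0.01) did not follow it.

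**Figure D4:**
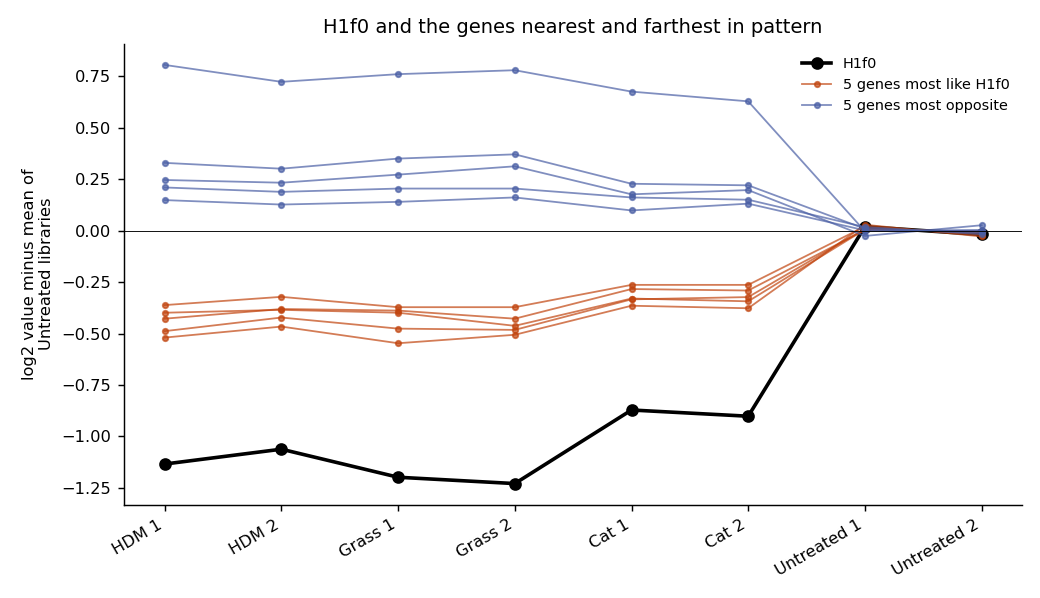
Value of H1f0 and of the rows most like and most opposite to it in each of the 8 libraries, as the log2 value minus its own mean over the Untreated libraries. The 5 like rows lie below their Untreated level with every extract, less far than H1f0, and Slc7a11, the uppermost line, lies above its Untreated level in all 6 libraries with an extract.

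Genes that place, remove or modify these histones were taken from 7 lists of 77 genes, of which 71 passed the filter. The lists were chosen with earlier results of these data known, and genes are named by their smallest limma p in these same comparisons. Adjusted p-values printed for them are therefore descriptions and give no independent support. With HDM 17 were lower and 10 higher, with Grass 20 lower and 10 higher, and with Cat 12 lower and 7 higher, with median log2 changes of −0.01, −0.03 and −0.01. Of all rows tested, 21.9%, 25.4% and 13.6% were lower and 9.22%, 10.4% and 4.34% higher, and nothing is read from the counts of the lists. In every setting that tested the gene, 10, 10 and 6 of the lower calls held, and 2, 2 and 0 of the higher ones. Hist1h1e, counted as held with HDM and Grass, was tested in 19 of the 20 settings. The small changes turn on how libraries are scaled.

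Of 10 listed variant and linker genes 5 were tested, and all 5 were lower with HDM, 4 with Grass and 2 with Cat. Of these calls 3, 3 and 1 held in every setting that tested the gene. Over all rows 21.9%, 25.4% and 13.6% were lower. Hist1h1c, for the linker histone H1.2, was 49.7 and 53.8 with HDM, 50.5 and 52.2 with Grass and 59.5 and 54.0 with Cat, against 79.9 and 77.5 in Untreated cells. No library with an extract reached the Untreated range, and the log2 changes were −0.61, −0.62 and −0.47 (SE 0.05; limma with Benjamini-Hochberg adjustment, adjusted p = 3.2e-10, 2.2e-10 and 1.8e-07). Hist1h1b rests on 46 to 178 reads, with log2 changes of −1.04, −1.65 and −1.05 (SE 0.20; limma, adjusted p = 0.00036, 8.9e-07 and 0.00076), and its call with Cat was lost with DESeq2. Hist1h1e (24 to 68 reads) changed by −1.19 with HDM and −0.98 with Grass, and its −0.16 with Cat did not pass (limma, adjusted p = 0.7). Hist1h1d had log2 differences of −0.76, −0.78 and −0.53, of which that with Cat did not pass (limma, adjusted p = 0.082). Its calls were lost with DESeq2 and without Untreated library 1, and also without HDM library 2 for HDM and without Grass library 1 for Grass. The call of H2afj, an H2A variant named after its values were seen, was lost with HDM in 8 settings. Of the 4 tested cluster linker genes, Hist1h1c, Hist1h1d and Hist1h1e hold the stem-loop motif that H2afx holds, and how mRNA enrichment acted on such transcripts was not tested.

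Of 8 genes for H3.3 deposition, 2 were lower with HDM, 3 with Grass and 1 with Cat, where 21.9%, 25.4% and 13.6% of all rows were. Daxx, the H3.3 chaperone that works with Atrx, was 68.0 and 64.6 with HDM, 65.9 and 65.6 with Grass and 71.8 and 70.2 with Cat, against 77.6 and 88.3 in Untreated cells. The Untreated libraries differ from each other more than those of any extract, and the log2 changes were −0.32, −0.33 and −0.22 (SE 0.05; limma, adjusted p = 2.4e-05, 1.2e-05 and 0.0023), the last lost without Cat library 2. Hira, the chaperone of H3.3 at active genes, changed by −0.11 with HDM and −0.09 with Grass, calls lost in 10 and 13 of 20 settings. Ubn2, a Hira partner, was higher by 0.12 on the log2 scale with HDM (limma, adjusted p = 0.005).

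Of 13 tested genes of the complexes that exchange H2A.Z, none was higher and 2, 3 and 2 were lower with HDM, Grass and Cat. Lower calls took 21.9%, 25.4% and 13.6% of all rows, so these counts lie near that background. Ep400, an ATPase of such a complex, changed by −0.16, −0.15 and −0.09 (SE 0.03; limma, adjusted p = 0.00022, 2e-04 and 0.03). Its call with Cat was lost in 11 of 20 settings, among them TMM factors, edgeR, DESeq2 and either Cat library left out, and its calls with HDM and Grass were lost with plain library size. No H2A.Z exchange call held in every setting. Of 9 genes that signal from H2A.X, 3, 4 and 3 were higher and none lower, where 9.22%, 10.4% and 4.34% of all rows were higher. Atm, the kinase that phosphorylates H2A.X, changed by 0.17, 0.18 and 0.10 (SE 0.03; limma, adjusted p = 0.00039, 0.00016 and 0.035), and the last of these was lost in 7 settings. Rnf168, a ubiquitin ligase of the same response, changed by 0.14, 0.19 and 0.16, and its call with Grass held in every setting while those with HDM and Cat were lost in 4 and 3.

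Of 9 linker histone chaperones and competitors, 1, 2 and 1 were lower with HDM, Grass and Cat and 1 was higher with each. Over all rows 21.9%, 25.4% and 13.6% were lower and 9.22%, 10.4% and 4.34% higher. Hmgb2, a DNA-bending protein that binds linker DNA, was 360 and 359 with HDM, 363 and 361 with Grass and 378 and 367 with Cat, against 424 and 419 in Untreated cells. Its log2 changes were −0.23, −0.22 and −0.18 (SE 0.03; limma, adjusted p = 2.8e-07, 5.5e-07 and 4.5e-05), lower with every extract in all settings. Of 8 genes of replication-coupled and centromere deposition, 2 were lower and 1 higher with each extract, beside the same shares of all rows. Cenpa, the centromeric H3 variant, was 66.4 and 68.5 with HDM, 67.9 and 67.3 with Grass and 75.0 and 69.6 with Cat, against 95.3 and 91.1 in Untreated cells. Cenpa's log2 changes were −0.47, −0.46 and −0.37 (SE 0.04). Chaf1a, the large subunit of the assembly factor CAF-1, changed by 0.14, 0.15 and 0.16, calls that ended without 1 library in each comparison: HDM library 1 or Untreated library 2, Grass library 1, and Cat library 2.

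Of 19 deacetylases and acetyltransferases, 5, 6 and 4 were lower and 4, 4 and 2 higher. Over all rows 21.9%, 25.4% and 13.6% were lower and 9.22%, 10.4% and 4.34% higher. Hdac9, a class IIa deacetylase, was 51.4 and 50.9 with HDM, 52.4 and 51.3 with Grass and 67.7 and 69.6 with Cat, against 81.5 and 86.5 in Untreated cells. HDM and Grass lie together below Cat, which lies below Untreated, with log2 changes of −0.71, −0.69 and −0.29 (SE 0.04; limma, adjusted p = 5.3e-13, 8.3e-13 and 1.1e-05). The differences from Cat, −0.42 for HDM and −0.40 for Grass, held in every setting. Hdac5, of the same class, was 65.6 and 63.6 with HDM, 69.4 and 67.3 with Grass and 74.9 and 79.8 with Cat, against 89.8 and 88.5 in Untreated cells, with log2 changes of −0.46, −0.38 and −0.21. Kat6a, an acetyltransferase, changed by −0.20, −0.23 and −0.10, the last lost in 8 settings. In bulk RNA, fewer cells expressing a gene and less RNA per cell cannot be told apart for any of these genes.

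**Figure D5:**
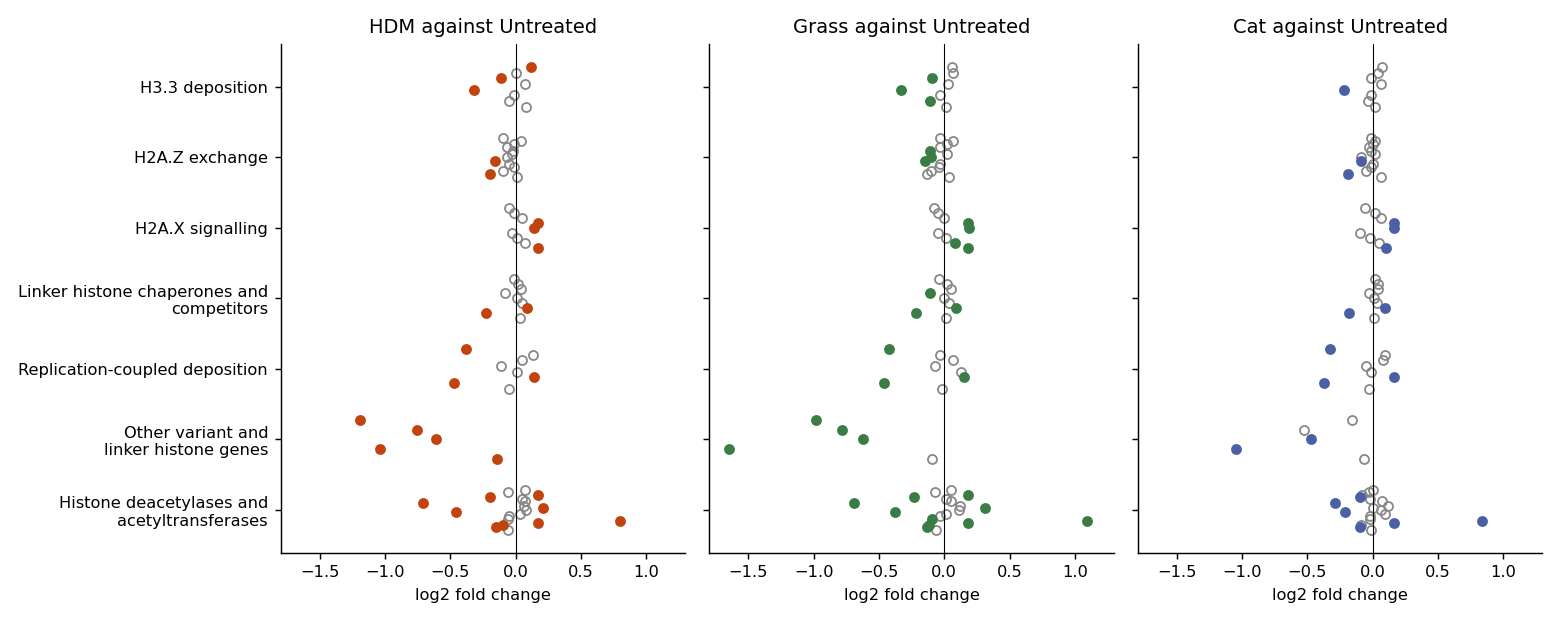
Log2 fold change against Untreated cells of the listed chromatin genes, by list, with HDM, Grass and Cat in a panel each; every point is 1 tested gene, filled where called and open where not. In the H3.3, H2A.Z and H2A.X lists every gene but Daxx lies within 0.20 of 0, while the cluster linker genes reach −1.65.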

How the data were processed

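RNA sequencing of 8 libraries (4 groups of 2) was analysed from the tables the authors deposited. Bowtie2 2.1.0, RSEM 1.2.15, edgeR (version not given) and the build mm9 are named in the submitters' processing notes, with no role or order. The authors deposited 1 table headed as counts whose values are a depth-scaled signal: dividing by 1 value fixed for each library turns 100% of the values above 0 into whole numbers (tolerance 1e-06), so whole reads were recovered. The authors' deposited tables of changed genes give a signed linear fold and its p-value and false discovery rate; only their folds for H1f0 are quoted.

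The test was chosen for scaled values, not counts: limma 3.58.1 in R 4.3.3 on log2(value + 0.1), with trended and robust variance, all 8 libraries in 1 fit, on the 11455 rows at 0.5 or more in at least 2 libraries, with Benjamini-Hochberg adjustment per comparison. The fit was tested on simulated data. Alternatives were other scalings, pseudocounts and filters, edgeR 4.0.16 and DESeq2 1.42.0 on the recovered reads, a replicate block, only the groups compared, and each library left out. Plain library size was added after the data were seen.

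The 8 genes and the 7 chromatin lists were chosen with earlier results of these data known, so neither gives independent support. From each list, up to 4 genes with the smallest limma p in any comparison with Untreated cells were eligible to be named; the 5 rows most like and the 5 most opposite to H1f0 were named by Pearson correlation of log2 values. Promoters are RefSeq sequences on GRCm38.p6 (7 of 8 genes matched) and transcripts are GENCODE M21; the deposited tables hold no coordinates, and none was taken between builds. Counting errors cover counting only. The values of 1 gene that the naming rule takes from the lists are not reported here.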

Additional observations from a re-analysis of the deposited data

How the results depend on the processing

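The lower values of H1f0, H2afx and H3f3b with each extract kept direction and call in all 20 other settings. Small changes depended on scaling: against the deposited values, the median of all rows moved up by at most 0.09 (plain library size, Grass), and the share of higher calls among all calls with HDM was 29.6% as deposited, 47% with TMM factors, 65.2% with upper-quartile factors and 68.7% with plain library size. With Grass those shares were 29.1%, 46.6%, 64.8% and 69.5%, and with Cat 24.1%, 41.1%, 55.7% and 64.2%. H2afz changed sign with HDM and was called higher, by 0.07 with upper-quartile factors and by 0.07 with plain library size, so that 1 of the 8 genes was higher with HDM in each of these settings. With Grass 1 of them (H2afz) was higher with TMM, DESeq2 and upper-quartile factors, plain library size, edgeR and DESeq2. Between HDM and Grass 1 of them (H1f0) was higher at a minimum value of 2 and with only the 2 groups compared, and 0 to 1 with a library left out. Between Grass and Cat 1 (H3f3a, by 0.08) was higher with upper-quartile factors and with plain library size, and 1 to 2 were lower with a library left out.

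Of the listed chromatin genes, 16 were higher with HDM with TMM factors, DESeq2 factors and edgeR, 24 with upper-quartile factors, 26 with plain library size and 5 with only the 2 groups compared, and 11 were lower with plain library size. With Grass 20 were higher with TMM factors and edgeR, 19 with DESeq2 factors, 26 with upper-quartile factors and 27 with plain library size, and 13 were lower with TMM factors, DESeq2 factors and edgeR, 12 with upper-quartile factors and DESeq2 and 11 with plain library size. With Cat 11 were higher with TMM and DESeq2 factors, 12 with edgeR, 14 with upper-quartile factors, 18 with plain library size and 2 with no filter or with only the 2 groups compared, and 7 were lower with DESeq2. With a library left out, 4 to 9 were higher with HDM, 4 to 10 with Grass and 1 to 6 with Cat, and 7 to 13 were lower with Cat. Over all rows the higher calls shifted too. With HDM they were 1056 of 11455 rows as deposited, 1485 of 11459 with TMM factors and 2351 of 11480 with plain library size. With Grass they were 1193, 1687 and 2768 of the same rows, and with Cat 497, 764 and 1308. With plain library size lower calls took 9.33%, 10.6% and 6.36% of all rows with HDM, Grass and Cat. As deposited they took 21.9%, 25.4% and 13.6%. Nothing is read from the counts of the lists. The cause of these shifts was not tested.

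Replicate numbers did not pair the libraries: same-numbered deviations correlated at −0.08 to 0.13 over 11455 rows. With the replicate number as a block, 3, 3 and 4 of the 7 tested genes were lower with HDM, Grass and Cat. Of the 71 tested chromatin genes 18, 20 and 11 were lower, where 21.5%, 25% and 13% of all rows were. Groups of 2 libraries limit all errors, and H1fx, Hist1h1b, Hist1h1d and Hist1h1e rest on few reads.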
